A study of Mus musculus with 8 samples.

Results

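The annexins and the small S100 proteins that bind them were followed here in the retina of mouse pups at postnatal day 8. Of 10 listed genes (Anxa1, Anxa2, Anxa3, Anxa4, Anxa5, Anxa6, Anxa7, Anxa11, S100a10 and S100a11), 8 had a probe set annotated to that symbol alone, 20 probe sets in all among 34945 probe sets with 1 symbol. Anxa11 and S100a11 each had only 1 probe set, which the annotation shares with other symbols, so neither gene was measured here. The genes were chosen by their family and with the signal differences between the Control and Z/Edn2 arrays already known, so every such difference given for them is a description, with no test.

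RNA was measured with Affymetrix arrays in 4 Control samples and 4 Z/Edn2 samples, each a pool of retinas from 2 to 3 pups. Control pups were Six3-Cre, a Cre recombinase driven by the Six3 promoter, which is active in the developing retina. Z/Edn2 pups were Z/Edn2; Six3-Cre, so they carried Cre as the Control pups did and in addition a transgene for Edn2, the gene of the peptide endothelin 2. The allele was recognised by LacZ activity in tail clips. All mice were of mixed background, mainly C57BL/6 and 129. The signal is the authors' RMA value, a background-corrected and quantile-normalized log2 signal per probe set, and every level and difference below is on that log2 scale.

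Annexins are proteins that bind membranes rich in acidic phospholipids when calcium rises, through a core of repeated domains, and take part in membrane repair, vesicle traffic and the response to injury. S100 proteins are small calcium-binding dimers. S100A10 has lost the ability to bind calcium and forms a complex with the N-terminus of annexin A2, on which plasminogen activation at the cell surface can take place, while annexin A1 binds S100A11. In the retina, annexins are known from glia, vessels and immune cells.

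Promoter letters were available in RefSeq windows of the assembly GRCm38.p6 for 7 of the 10 genes. The 250 bases before the start site of Anxa2 are shown because this gene had the widest gap between the groups in proportion to its spread, and those of Anxa5 as a related gene whose groups overlapped. They are printed 5′ to 3′ on the gene's own strand, with searched motifs in capitals. The motifs were ACGTG and GCGTG, the core of hypoxia-inducible factor sites, TGANTCA, the AP-1 site, and TTCNNNGAA, a STAT site, on both strands.
Anxa2, chr9:69453433-69453682, plus strand: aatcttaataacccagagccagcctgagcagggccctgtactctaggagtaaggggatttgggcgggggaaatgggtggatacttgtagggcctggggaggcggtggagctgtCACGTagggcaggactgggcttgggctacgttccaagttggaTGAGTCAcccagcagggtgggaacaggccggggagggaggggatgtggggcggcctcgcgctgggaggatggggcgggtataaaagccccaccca
Anxa5, chr3:36475888-36476137, minus strand: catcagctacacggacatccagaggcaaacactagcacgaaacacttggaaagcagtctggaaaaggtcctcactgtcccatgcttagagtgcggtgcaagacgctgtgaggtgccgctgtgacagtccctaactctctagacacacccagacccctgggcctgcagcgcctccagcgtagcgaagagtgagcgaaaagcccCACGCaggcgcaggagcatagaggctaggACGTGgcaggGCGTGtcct

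In Anxa2 the capitals mark ACGTG, read on the opposite strand at bases -137 to -133 from the start site, and an AP-1 match at -95 to -89, and a further ACGTG lies after the start site at 43 to 47. In Anxa5 they mark GCGTG on the opposite strand at -48 to -44, ACGTG at -19 to -15 and GCGTG at -9 to -5. The window of Anxa1, on chromosome 19, held none of the 4 motifs, which says only that these letters are not in that window. Of the 9 windows of the 7 genes, 7 held at least 1 of the motifs, as did 53.6% of all 32851 windows of 300 bases. By motif, 19.6% of all windows held ACGTG, 32.4% GCGTG, 7.81% TGANTCA and 8.3% TTCNNNGAA, and a match is a description of letters, not a bound site.

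The array of Z/Edn2 3 stood apart. Its median was 6.28 against 6.14 to 6.17 on the other 7 arrays, and Xist, transcribed from a silenced X, averaged 5.56 there over its probe sets against 7.92 to 10.3 elsewhere. Y-linked probe sets averaged 6.66 there, against 5.36 to 6.32 elsewhere. They were lowest where Xist was highest, on Control 4, Z/Edn2 1 and Z/Edn2 4. The sex make-up of the pools and its part in the values below were not tested. Control 1 and Z/Edn2 1 had a smaller actin signal at the 3′ end over the 5′ end, a measure that moves with RNA integrity and labelling, at 0.65 and 0.56 (log2 difference) against 1.06 to 1.42 elsewhere. Rod markers were bright on all arrays, with a list mean of 12.4 to 13.1 over 5 genes. Edn2 itself had 1 probe set, at 3.87 to 4.12 in Control and 4.00 to 4.28 in Z/Edn2, whose place relative to the transgene is not given in the sources used here. The labels do not say what samples with the same replicate number share, but across probe sets they varied together.

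**Figure D1:**
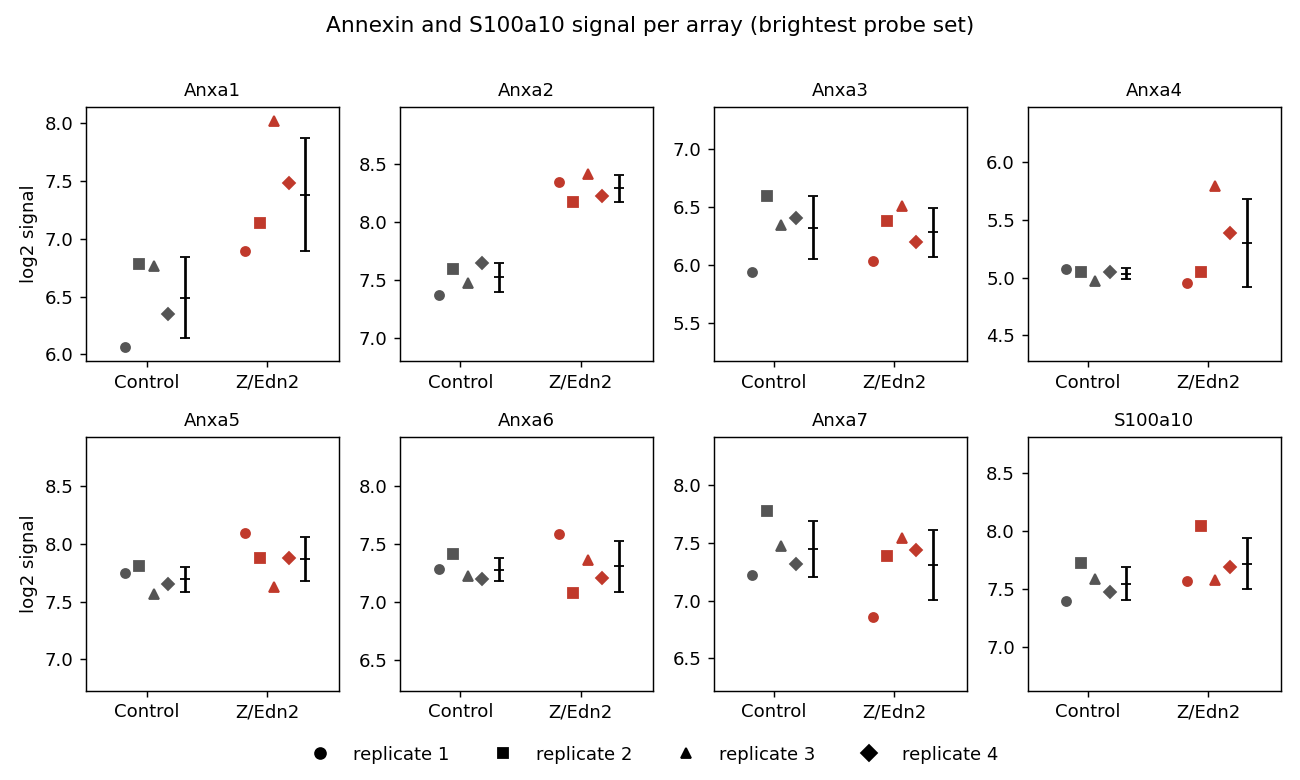
Log2 signal of the brightest probe set of each measured gene on each array, Control in grey and Z/Edn2 in red, with the symbol giving the replicate number and the bar the mean ± SD (n = 4 each); every panel spans the same log2 range. Anxa2 at 8.17 to 8.42 and Anxa1 at 6.89 to 8.02 in Z/Edn2 lie above all Control arrays, while the groups overlap in the other 6 genes.

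Anxa2, which encodes the partner of S100A10, was higher in Z/Edn2 retina, with little spread within either group. Its brightest probe set, 1419091_a_at, read 7.37, 7.60, 7.48 and 7.65 in Control 1 to 4 and 8.35, 8.17, 8.42 and 8.22 in Z/Edn2 1 to 4. All Z/Edn2 arrays were above all Control arrays, and the gap between the groups was wider than either group's range. The means were 7.52 ± 0.124 and 8.29 ± 0.113 (SD, n = 4 each), a difference of 0.77 ± 0.0943 (limma SE) or 1.70-fold. Within the same-numbered pairs the difference was 0.98, 0.58, 0.95 and 0.57. In a bulk sample, more cells of a type that expresses a gene and more RNA per cell cannot be told apart.

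The other Anxa2 probe sets gave smaller differences. The probe set 1437692_x_at, whose suffix marks probes that can bind other transcripts, read 4.97, 5.32, 5.31 and 5.24 in Control and 5.61, 5.65, 5.37 and 5.61 in Z/Edn2. These groups did not overlap either, but Z/Edn2 3 was only 0.0588 above its same-numbered Control array, and the difference was 0.35 ± 0.107 (SE). The third, 1437691_at, was dimmer than nearly all of the array, with only 2.22% of probe sets below it, and had a difference of 0.11 ± 0.114. Averaged over its 3 probe sets, the difference of Anxa2 was 0.41.

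Of the 20 probe sets, only the brightest one of Anxa2 passed limma with Benjamini-Hochberg adjustment over all 34945 probe sets at 0.05, and it was higher. Over the whole array 0.0887% of probe sets were called higher and 0.0258% lower (0.217% and 0.0515% when the replicate number entered as a block, where the count of the 20 was also 1). Because the genes were picked with this contrast known, nothing is read from the count of 1. The count became 0 without Control 1, Control 2, Control 3, Control 4, Z/Edn2 3 or Z/Edn2 4, and stayed at 1 without Z/Edn2 1 or Z/Edn2 2, while the difference itself stayed between 0.72 and 0.81 in these 8 omissions. It was also 0 with Anxa2 taken as the mean of its probe sets. Of the 20 probe sets, 3 had groups without overlap, all higher in Z/Edn2 (2 of Anxa2 and 1 of Anxa1), where 2.32% of all probe sets were higher without overlap, 0.813% lower and 3.13% either. Positive differences numbered 16 and negative ones 4, against 56.3% positive over all probe sets, with a median difference of 0.12 for the 20 and 0.018 for all.

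Anxa1, whose product restrains inflammation and blocks phospholipase A2, had a difference larger than that of Anxa2 but far more spread. Its brightest probe set, 1448213_at, read 6.07, 6.78, 6.77 and 6.35 in Control and 6.89, 7.14, 8.02 and 7.49 in Z/Edn2. The groups did not overlap, but the lowest Z/Edn2 array lay only just above the highest Control array, and replicate 1 was the lowest in both groups. The means were 6.49 ± 0.348 and 7.38 ± 0.488 (SD, n = 4 each), and the difference was 0.89 ± 0.248 (SE), 1.86-fold. Z/Edn2 was higher within each pair, by 0.83, 0.36, 1.25 and 1.14. Without Z/Edn2 3 the difference was 0.68, and averaged over both probe sets of the gene it was 0.47. The second probe set, 1444016_at, was dim, at 3.36 to 3.74 in Control and 3.59 to 3.79 in Z/Edn2, and the 2 probe sets thus did not share the pattern.

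Marker lists of other cells are given beside Anxa2 and Anxa1. Over all probe sets limma called 0.114% (0.269% with the replicate block), and 4.03% had an unadjusted p under 0.05. The astrocyte list (Gfap, Pdgfra, Slc14a1, Aldh1l1 and Igfbp5; Pax2 was not measured) had a mean of 7.13 to 7.48 in Control and 7.74 to 7.88 in Z/Edn2. Differences were positive in 5 of 5 genes, though the groups overlapped in the brightest probe set of Gfap, at 0.17 ± 0.188 (SE). Of the 12 probe sets 0 passed limma and 7 had an unadjusted p under 0.05. With the replicate block 1 of the 12 passed, of Igfbp5, an insulin-like growth factor binding protein. The fibroblast list of 6 genes ran from 5.01 to 5.29 in Control and from 5.12 to 5.56 in Z/Edn2, with its highest value in Z/Edn2 3. The brightest probe sets of Anxa1 and Anxa2 and the dimmest of Anxa2 were also highest on that array. The Anxa2 probe set 1437692_x_at was instead the lowest of the Z/Edn2 arrays there. The fibroblast genes were split, with positive differences in 3 of 6 and 0 of 11 probe sets passing limma, with or without the block. The mural cell list, 7 genes of pericytes and smooth muscle, likewise peaked in Z/Edn2 3, at 7.22 against 6.68 to 7.05 on the other 7 arrays, with positive differences in 5 of 7 genes and 0 of 15 probe sets passing in either fit. The endothelial list mean of 8 genes was lower in Z/Edn2, at 5.98 to 6.65 against 6.67 to 6.93, a narrow gap. Differences were negative in 6 genes and positive in 2. Of its 12 probe sets 7 were negative and 5 positive. Groups were without overlap in 2 of the 12, of Tek and Cldn5, both lower, where 0.813% of all probe sets were lower without overlap. Only 1 passed, that of Tek, the angiopoietin receptor, with a difference of -1.54. Cldn5 was next lowest, at -0.91. The microglia list of 9 genes overlapped between the groups, at 6.21 to 6.36 in Control and 6.05 to 6.33 in Z/Edn2. Differences were negative in 7 genes and positive in 2. Of its 14 probe sets 0 passed limma, with or without the block. In 2 of the 14, of P2ry12 (-0.59) and Aif1 (-0.20), the unadjusted p was under 0.05 and Z/Edn2 was lower without overlap. Retinal ganglion cell markers, 7 genes, were lower without overlap of the list means, at 9.25 to 9.35 against 9.57 to 9.83. Differences were negative in all 13 probe sets, of which 0 passed limma and 6 had an unadjusted p under 0.05. The list means of Mueller glia, pigment epithelium, lens and blood cells overlapped between the groups. Within the Mueller glia list, 0 of 20 probe sets passed limma and 7 had an unadjusted p under 0.05. With the replicate block 2 of the 20 passed in opposite directions, of Sox9, a transcription factor of glia and progenitors (0.56, limma adjusted p = 0.046), and of Abca8a, a transporter (-1.13, adjusted p = 0.0421). A list of 12 hypoxia response genes had means of 7.97 to 8.07 in Control and 9.01 to 9.19 in Z/Edn2. By brightest probe set 7 of the 12 genes passed, all higher. Of its 22 probe sets 10 passed, all higher. Over all probe sets 0.0887% were called higher. The lists were chosen with earlier results of these data known, so these counts are a description. The part of these cells and of the hypoxia response in the levels of Anxa1 and Anxa2 was not tested.

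S100a10, the partner of annexin A2, did not separate the groups. Its brightest probe set, 1416762_at, read 7.39, 7.72, 7.59 and 7.47 in Control and 7.57, 8.05, 7.58 and 7.69 in Z/Edn2. Only Z/Edn2 2 lay above all Control arrays. The difference was 0.18 ± 0.125 (SE), from means of 7.54 ± 0.143 and 7.72 ± 0.224 (SD, n = 4 each), and became 0.068 without Z/Edn2 2. Its other probe sets had differences of 0.12 ± 0.213 (1456642_x_at, which turned to -0.050 without Control 1 and to -0.024 without Z/Edn2 2) and 0.11 ± 0.111 (1439348_at, which became 0.011 without Z/Edn2 2). In both of these Z/Edn2 2 was again the highest array, at 8.02 and 4.74. The 3 probe sets varied together after removal of the group means, with correlations of 0.64 to 0.89 over 8 arrays, so they tracked a shared variation among the samples.

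**Figure D2:**
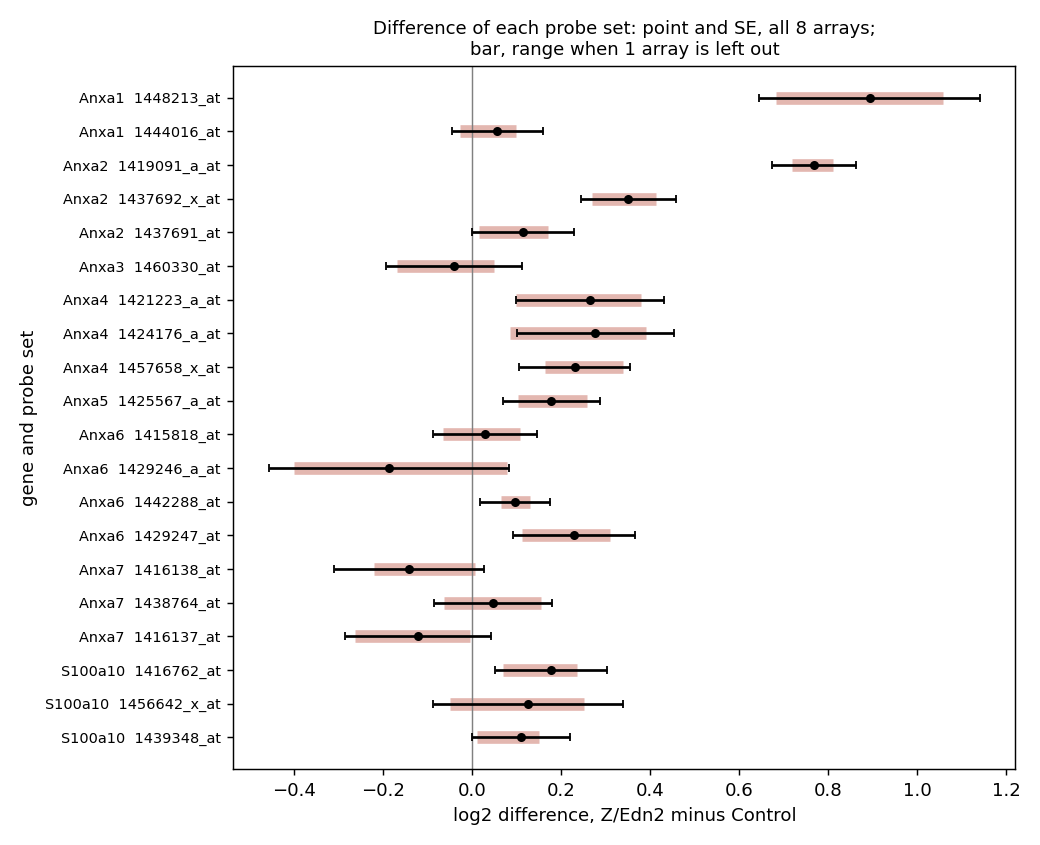
Log2 difference, Z/Edn2 minus Control, of all 20 probe sets of the 8 genes, with limma's SE (black) over 8 arrays and the range of the difference when any 1 array is left out (shaded bar). The brightest probe sets of Anxa1 and Anxa2, at 0.89 and 0.77, lie apart from the other 18, which run from -0.19 to 0.35.

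Anxa4, an annexin of epithelial and secretory cells, had a wider spread in Z/Edn2 than in Control in its brighter probe sets but not in its dimmest. Its brightest probe set, 1421223_a_at, read 5.07, 5.04, 4.97 and 5.05 in Control, a range of little width, and 4.96, 5.05, 5.80 and 5.39 in Z/Edn2. Z/Edn2 1 lay below every Control array, Z/Edn2 2 among them, Z/Edn2 4 above them and Z/Edn2 3 farthest above. The difference of 0.26 ± 0.166 (SE) became 0.099 without Z/Edn2 3. The probe set 1424176_a_at showed the same high value in Z/Edn2 3, at 4.82 against 3.90 to 4.24 in the other Z/Edn2 arrays, of which Z/Edn2 1 and Z/Edn2 4 also lay above all Control arrays, and its difference went from 0.28 ± 0.177 to 0.084 without it. The third, 1457658_x_at, was dim, at 2.98 to 3.57 over all arrays, with a difference of 0.23 ± 0.125. Its spread was wider in Control, with an SD of 0.234 against 0.126 in Z/Edn2.

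Anxa5, which binds exposed phosphatidylserine and is used as a label of dying cells, read 7.75, 7.81, 7.56 and 7.66 in Control and 8.09, 7.88, 7.63 and 7.88 in Z/Edn2. The groups overlapped through Z/Edn2 3, and Z/Edn2 was the higher array in all 4 same-numbered pairs, by 0.065 to 0.35. The difference was 0.18 ± 0.109 (SE) and became 0.10 without Z/Edn2 1.

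Anxa3, Anxa6 and Anxa7 showed no common direction. Anxa3, known from phagocytes and sprouting vessels, read 5.94, 6.59, 6.35 and 6.41 in Control and 6.03, 6.38, 6.51 and 6.20 in Z/Edn2, with a difference of -0.042 ± 0.152 (SE) that turned positive without Control 2 or Z/Edn2 1. Anxa6, a large annexin with a doubled core, had 4 probe sets with differences of 0.028, -0.19, 0.096 and 0.23, in order of falling signal. The first turned to -0.065 without Z/Edn2 1, and the last became 0.11 without Z/Edn2 3. The negative one, 1429246_a_at, rested on Z/Edn2 3, at 5.52 against 6.38 to 6.96 in the other Z/Edn2 arrays, and was 0.079 without it. Anxa7, also called synexin and tied to membrane fusion, had differences of -0.14, 0.047 and -0.12, of which the first turned to 0.0057 without Z/Edn2 1 and the second to -0.064 without Z/Edn2 3. The third became -0.0058 without Z/Edn2 1.

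How the genes varied among samples of the same group does not use the difference between group means. The same spread does enter the contrast known when the genes were chosen, so the 2 are not fully independent. After removal of the group means, the brightest probe sets of Anxa2 and S100a10 had a Pearson r of -0.28 over 8 arrays and a Spearman rho of -0.048 (exact permutation p = 0.523 and 0.948, two-sided, arrays permuted within groups, adjusted p = 0.757 and 0.983 over 28 pairs of genes). Without Control 1 and Z/Edn2 3, the arrays farthest from the median of Anxa2, r was -0.52. Omission of Z/Edn2 2 turned r to 0.19, and omission of any other array left it negative, between -0.69 and -0.13. With the mean of each replicate number removed as well, r was -0.74. Same-numbered arrays then mirror each other, so that value rests on only the 4 pair differences of each gene. The permutations moved arrays freely within groups and did not keep same-numbered arrays together, a limit on all exact p-values of these correlations, and the blocked r was not tested.

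The pairs with the smallest p were Anxa3 with Anxa7 (r = 0.81, rho = 0.81, exact permutation p = 0.0226 and 0.0312) and Anxa1 with Anxa7 (r = 0.83, rho = 0.857, exact permutation p = 0.0278 and 0.0191). Neither passed adjustment over the 28 pairs (adjusted p = 0.389 for r and 0.438 for rho in both). Without the 2 arrays farthest from the median of the first gene, r was 0.57 for Anxa3 with Anxa7 and 0.75 for Anxa1 with Anxa7. Replicate 1 was the lowest array of each group in the brightest probe sets of Anxa1, Anxa3, Anxa7 and S100a10. For S100a10 in Z/Edn2 the margin was narrow, at 7.57 against 7.576 in Z/Edn2 3. The replicate 1 arrays are the same arrays that had the small actin 3′ over 5′ difference. The part of RNA integrity in that pattern was not tested. The 3 probe sets of Anxa7 had correlations of 0.78 to 0.93 with each other, while those of the brightest Anxa2 probe set with its others were 0.070 and 0.49.

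**Figure D3:**
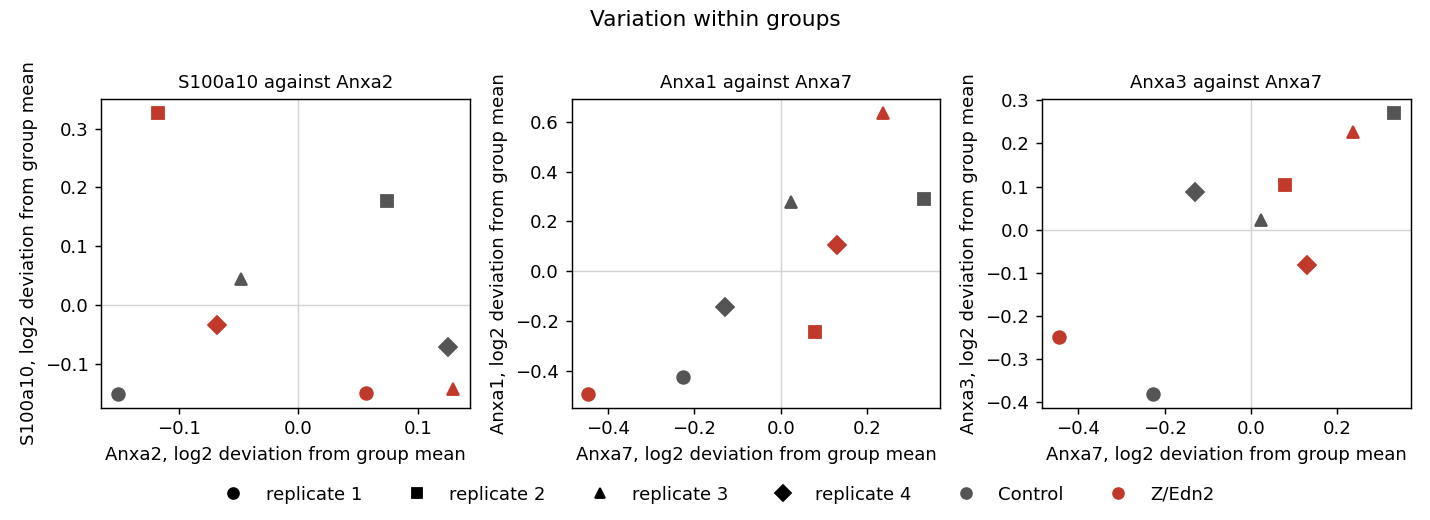
Deviation of each array from its group mean (log2) for S100a10 against Anxa2, Anxa1 against Anxa7 and Anxa3 against Anxa7, brightest probe sets, Control in grey and Z/Edn2 in red, with the symbol giving the replicate number. The first panel has an r of -0.28, and in the other panels, with r of 0.83 and 0.81, the replicate 1 arrays lie at the lower left.

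The genes most like Anxa2 by this measure, among 10245 other genes with signal at or above the array's median, were Aplnr (r = 0.90), 9930104L06Rik (0.90), Arsa (0.89), 1700012D14Rik (0.88) and Prss44 (0.86). S100a10 ranked 8227 of these genes and Anxa1 726. Aplnr, the apelin receptor of endothelium, had a difference of opposite sign between the groups, -2.05. The genes most like S100a10 were Uqcc3 (r = 0.99), Lin7a (0.98), Mcfd2 (0.97), Dusp22 (0.97) and 2900052N01Rik (0.96), and Anxa2 ranked 7294. With 8 arrays and so many genes, high correlations of this kind are a description only. In RefSeq gene order S100a10 and S100a11 are neighbours on chromosome 3, with 0 protein-coding genes between them.

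The rest of both families and their partners, 35 measured genes with 63 probe sets, was tested by the same fit. By limma 0 of the 63 passed in either direction, where 0.114% of all probe sets did (0.269% with the block), and 3 had an unadjusted p under 0.05, where 4.03% of all did. Their differences were positive in 37 and negative in 26, with a median of 0.039 against 0.018 over all. Of the 6 probe sets of other annexins (Anxa8, Anxa9, Anxa10 and Anxa13) 0 had an unadjusted p under 0.05, of the 15 of other S100 genes 1, and of the 42 of partner genes 2. S100a7a, S100z, Fpr1 and Trpv5 had no usable probe set.

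S100a6, calcyclin, a calcium-binding S100 protein of glia and proliferating cells that can bind annexins, had the smallest p of these. It read 4.55, 5.23, 5.35 and 4.89 in Control and 5.07, 6.05, 6.04 and 6.07 in Z/Edn2. Z/Edn2 1 fell among the Control arrays, and the other Z/Edn2 arrays lay close together above them. The difference was 0.81 ± 0.251 (SE), 1.75-fold, with a limma adjusted p of 0.982. With the replicate number as a block the SE was 0.111 and the adjusted p 0.0439, so S100a6 passed there, in a fit in which 0.217% of all probe sets were called higher. Z/Edn2 was higher in all 4 pairs, by 0.53, 0.82, 0.69 and 1.18. In the other 18 settings that tested S100a6 it passed in 0, with adjusted p from 0.077 to 1. Replicate 1 was the lowest array of both groups, as in Anxa1, and the astrocyte list, whose values stand above, was higher in Z/Edn2 too, with its part in S100a6 not tested.

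**Figure D4:**
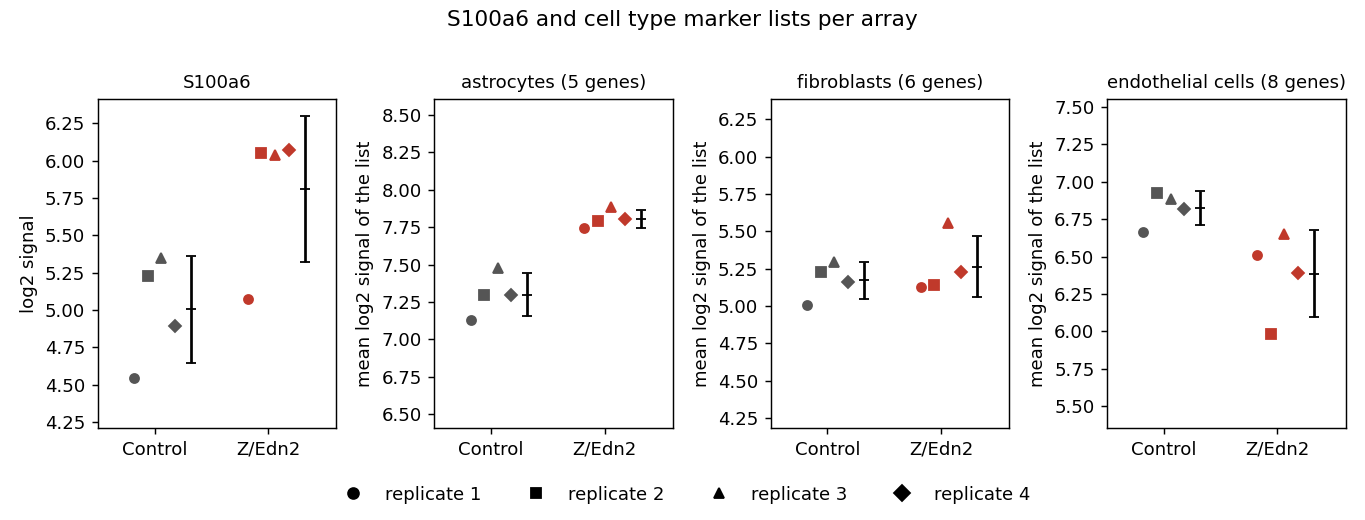
Log2 signal of S100a6 and mean log2 signal of the astrocyte, fibroblast and endothelial marker lists on each array, Control in grey and Z/Edn2 in red, with the symbol giving the replicate number and the bar the mean ± SD (n = 4 each); all panels span the same log2 range. S100a6 in Z/Edn2 1, at 5.07, lies among the Control arrays, while the astrocyte means of 7.74 to 7.88 in Z/Edn2 lie above all Control arrays.

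Plat, the tissue plasminogen activator, which the annexin A2 and S100A10 complex can bind, followed with both of its probe sets. The brighter read 7.70, 7.74, 7.85 and 7.83 in Control and 8.14, 7.74, 8.16 and 8.08 in Z/Edn2, with Z/Edn2 2 at the level of the Control arrays and a difference of 0.25 ± 0.106 (SE; limma unadjusted p = 0.0429). The dimmer had groups without overlap by a narrow margin, at 4.43 to 4.81 and 4.82 to 4.95, and a difference of 0.22 ± 0.0956 (unadjusted p = 0.0448). Both had an adjusted p of 1.00, or 0.525 and 0.517 with the replicate block.

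The others with small p-values moved less than Anxa1 and Anxa2 in size. Plaur, the receptor of urokinase, had a difference of 0.15 ± 0.0803, a dim probe set of Anxa8 0.16 ± 0.0813, and 1 of 5 probe sets of Ctsb, the protease cathepsin B, 0.14 ± 0.0715 (log2, SE). Anxa8 and that probe set of Ctsb had groups without overlap. With the dimmer one of Plat, 3 of the 63 probe sets were higher without overlap and 0 lower. Over all probe sets these shares were 2.32% and 0.813%. The brightest probe set of Ctsb had groups that overlapped and a difference of -0.038 ± 0.0885. Sri, sorcin, a calcium-binding partner of annexin A7, had a difference of -0.17 ± 0.0898 in 1 of its 3 probe sets. Fpr2, a receptor of annexin A1, had 0.26 ± 0.150, with Z/Edn2 3 at 5.43 against 4.68 to 4.91 in the other Z/Edn2 arrays. None of these passed limma with or without the block.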

How the data were processed

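The authors deposited log2 signal per probe set, made with RMA per the submitters' processing notes (version not given in the sources used here), for 8 arrays labelled by the 3′ IVT Express kit. The authors also deposited a table with the p-value of an unnamed test, the log2 fold change and a fold change carrying a sign, treated as a score; its log2 values equalled the difference of group means, Z/Edn2 minus Control, within 4.9e-08. Values were used as deposited.

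Of 45101 probe sets, 64 were controls, 932 had several symbols, 9160 none and 34945 had 1, covering 18193 genes, and only the last were tested. R 4.3.3 and limma 3.58.1 (lmFit and eBayes) gave two-sided p-values, adjusted by Benjamini-Hochberg over all of these at a threshold of 0.05. Every probe set of a gene was kept, and its brightest was the one with the highest mean. Dim probe sets were kept. In simulated data with 34945 probe sets for this comparison, 34.3% of changes of 0.5, 83.6% of 1 and 98.5% of 2 (log2) were recovered, with 7 false calls. The simulated noise was independent between arrays and probe sets, without the variation that same-numbered arrays share, so these rates may not hold in the data. The number of arrays limits the precision.

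Members and lists were chosen with earlier results of these data known. The rule for named genes took all members, the family and partner probe sets past the threshold and the 8 with the smallest p, and the 5 genes most like Anxa2 and S100a10. After removal of group means, same-numbered arrays correlated at 0.80, 0.43, 0.18 and 0.31 across probe sets. All exceed 0.1, the level taken here as pairing, and the number was therefore used as a block in a further fit. Control 3 correlated more with Z/Edn2 4 (0.41) and with Z/Edn2 2 (0.19) than with Z/Edn2 3. The labels call the samples biological replicates, and the p-values measure the spread between these 8 pools. The exact permutation tests of correlations permuted arrays within groups in 576 ways and were added after the data were seen. Promoter windows came from RefSeq (GRCm38.p6), and annexin protein sequences were not used here. Alternatives were other fits, filters, scalings, probe set rules and omissions of arrays.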

Additional observations from a re-analysis of the deposited data

Results flagged for a closer look

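In 86 groups of 4 values, 4 held an array far from the other 3 by Dixon's criterion, which chance alone meets in about 1 of 20 groups. The probe set 1437692_x_at of Anxa2 was at 5.37 in Z/Edn2 3 against 5.61 to 5.65 in the other Z/Edn2 arrays. The dim probe set 1439348_at of S100a10 was at 4.74 in Z/Edn2 2 against 4.32 to 4.36. S100a6 was at 5.07 in Z/Edn2 1 against 6.04 to 6.07. The mean of the rod photoreceptor list was 12.89 in Z/Edn2 2 against 12.44 to 12.50.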

How the results depend on the processing

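The 20 member probe sets gave 404 differences under the alternatives. Of these, 403 moved by less than 1 SD of the replicates and 1 by more, the mean of the 3 Anxa2 probe sets at 0.41. The sign turned in 22, over 8 probe sets, and in none of those of the other 12, which include the brightest ones of Anxa1, Anxa2, Anxa4, Anxa5 and S100a10. Many of the 404 could not move or turn by construction, so these counts overstate what was tested. The replicate block, another limma variance setting and the probe set filters keep the same difference of group means, and the authors' fold change equals it. The count of 40 probe sets called on the whole array was 94 with the replicate block and 21 without dim probe sets. It ran from 10 to 40 when 1 array was left out, and was 10, 11 and 3 without the pairs of replicate 2, 3 and 4. The count of 1 member probe set was 0 when probe sets were averaged per gene and without any of the 4 pairs, and ran from 0 to 1 when 1 array was left out, where fewer arrays enter the fit. The count of 0 other family and partner probe sets was 1 with the block (S100a6). The correlation of Anxa2 with S100a10 within groups was -0.28 and ran from -0.69 to 0.19 when 1 array was left out. It was -0.74 with the block, where it rests on only the 4 pair differences. The cause of these shifts was not tested. Signals near the bottom of the array, such as those of the dimmest probe sets of Anxa1, Anxa2 and Anxa4, limit what they can show.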
